A study of Homo sapiens with 15 samples.

Results

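Aminoacyl-tRNA synthetases attach each amino acid to its tRNA, the step that supplies every ribosome with substrate. The genes described here were found by their symbols in the 3 deposited expression tables and number 39 of the 16109 genes listed in at least 1 table. They comprise 20 enzymes of the cytosol, 16 enzymes of the mitochondrion, whose symbols end in 2, and 3 scaffold proteins. All 39 were listed in each table, under the older symbols without a final 1 (AARS for AARS1).

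MYCi975 is an inhibitor directed at the transcription factor MYC, and the study set its effect on transcripts in PC3 and P493-6 beside that of switching MYC off. PC3 comes from a prostate cancer, and P493-6 is a B cell line that the labels describe as Burkitt lymphoma overexpressing c-MYC. Its introduced MYC is turned off by tetracycline. Treatment lasted 24 h in all 5 groups of 3 libraries each, with MYCi975 at 8 µM in PC3 and at 6 µM in P493-6, tetracycline at 0.1 µg/ml in P493-6, and DMSO for the controls of either line. The doses differ between the lines, and tetracycline was dissolved in water while its controls received DMSO, so tetracycline and its vehicle cannot be told apart. The labels do not say whether the 3 libraries of a group are separate cultures, so p-values measure only the spread between these libraries.

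Cytosol and mitochondrion mostly use separate synthetases, all encoded in the nucleus. GARS and KARS serve both compartments from a shared gene, EPRS joins the glutamyl and prolyl enzymes in a single chain, and no member makes mitochondrial glutaminyl-tRNA, which is formed from the product of EARS2 by an amidotransferase. In the cytosol 8 synthetases (DARS, EPRS, IARS, KARS, LARS, MARS, QARS and RARS) assemble with the scaffold proteins AIMP1, AIMP2 and EEF1E1 into the multisynthetase complex. MYC is known to drive genes of protein synthesis. ATF4, the transcription factor of the integrated stress response, is known to induce many cytosolic synthetase genes when amino acids or translation are disturbed, and WARS is also a classical interferon-induced gene.

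Start sites were searched for the motifs of both factors. RefSeq promoter windows (build GRCh38.p14, 250 bases before to 50 after a start) were at hand for 33 of the 39 members, but not for DARS, LARS, VARS, YARS, AARS2 and VARS2. The ATF4 motif TGATGNAA, read on both strands, occurred in 7 of 16 cytosolic genes with a window, 1 of 14 mitochondrial genes and 0 of 3 scaffold genes, against 4.46% of all 27305 genes with a window. All 7 belong to a list of 12 synthetases known as ATF4 targets (AARS, CARS, EPRS, GARS, IARS, LARS, MARS, NARS, SARS, TARS, WARS and YARS), of which 10 have a window. EPRS, SARS and WARS of that list have windows without the motif. The list was drawn up with earlier results of these data known, so its match with the results is a description and not independent evidence. The matching stretches are shown because the results are described by the same list. They run 5′ to 3′ on the strand of the gene, with the motif or its reverse complement in capitals.
AARS: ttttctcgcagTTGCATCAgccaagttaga
CARS: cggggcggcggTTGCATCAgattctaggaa
GARS: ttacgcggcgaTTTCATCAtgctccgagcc
IARS: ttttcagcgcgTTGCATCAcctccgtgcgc
MARS: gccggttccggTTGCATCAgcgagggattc
NARS: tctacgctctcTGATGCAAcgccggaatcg
TARS: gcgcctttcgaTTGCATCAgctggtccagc
YARS2: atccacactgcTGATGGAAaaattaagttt
The stretch of AARS lies at chr16:70289675-70289704 on the minus strand, of CARS at chr11:3057407-3057436 (minus), of GARS at chr7:30594834-30594863 (plus), of IARS at chr9:92293692-92293721 (minus) and of MARS at chr12:57488053-57488082 (plus). Those of NARS, TARS and YARS2 lie at chr18:57621804-57621833 (minus), chr5:33440956-33440985 (plus) and chr12:32756076-32756105 (minus). Counted from the start site, the match in AARS begins at position -187 and that in YARS2 at -197, while the other 6 begin between -33 and 15. A match is a description of letters and not evidence of binding.

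The E-box CACGTG, a sequence that MYC with its partner MAX can bind, occurred in 1 of 16 cytosolic, 3 of 14 mitochondrial and 1 of 3 scaffold genes with a window, against 8.77% of all genes. These stretches are shown for comparison with the response to tetracycline, with the E-box in capitals.
IARS: tggttcgttttcCACGTGgaggcgcaaaac
CARS2: tgctgggatgcaCACGTGcttcgctaacag
EARS2: cagggagaagccCACGTGtgctattccatc
MARS2: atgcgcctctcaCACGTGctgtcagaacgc
AIMP2: ccgggcgctggcCACGTGcaggtaggagcg
They lie at chr9:92293866-92293895 (IARS, minus strand), chr13:110706501-110706530 (CARS2, minus), chr16:23557348-23557377 (EARS2, minus), chr2:197705346-197705375 (MARS2, plus) and chr7:6009478-6009507 (AIMP2, plus). No match elsewhere says only that these letters are absent from the window searched.

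Levels are in CPM, counted reads of a gene scaled to a common library total, and with depths of 8162582 to 15926008 reads. CPM is not divided by gene length and is a share of the library, so levels are compared between groups and not between genes, and a change in RNA content per cell would not show. Genes were called at an adjusted p below 0.05 with limma on log2(CPM + 1), adjusted over all genes of the fit, and log2 fold changes are on that scale with their standard error (SE). In these cultures, a bulk measurement, fewer cells of a type and less RNA per cell cannot be told apart. MYC itself was at 4692, 4701 and 4791 CPM in P493-6 controls and 152, 145 and 150 CPM with tetracycline (-4.98 on the log2 scale), which matches the label of these libraries. In PC3 its level with MYCi975 was 378, 359 and 386 CPM, above the control values of 301, 300 and 309 CPM. All 6 epithelial markers were listed in PC3 and all 8 B cell markers in P493-6. KRT8, KRT18 and CDH1 were not listed in P493-6, and of the B cell markers only CD74 was listed in PC3. EPCAM did not part the lines clearly, at 10.7, 11.1 and 11.9 CPM in P493-6 controls and 13.5, 15.6 and 15.9 CPM in PC3 controls. KRT19 and KRT7 were listed in P493-6 controls at means of 0.675 and 0.963 CPM, against 627 and 207 CPM in PC3 controls.

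The cytosolic genes summed to between 3819 and 3881 CPM in PC3 controls and the mitochondrial genes to between 738 and 756 CPM. In P493-6 controls the ranges were 4745 to 4875 CPM and 826 to 838 CPM. Of the cytosolic genes, 13 were higher in every P493-6 control than in every PC3 control, 5 were higher in PC3, and FARSA and LARS overlapped. KARS stood farthest apart, at a mean of 138 CPM in PC3 and 328 CPM in P493-6, followed by YARS at 113 and 234 CPM. Among the mitochondrial genes 10 were higher in P493-6 and 4 in PC3. CARS2 had means of 27.3 CPM in PC3 and 110 CPM in P493-6, while IARS2 had 274 and 131 CPM. These differences between lines from separate tables are given as a description, with no test. The share of all genes that part the lines in this way was not computed. The counts are therefore not shown to be particular to these genes.

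**Figure D1:**
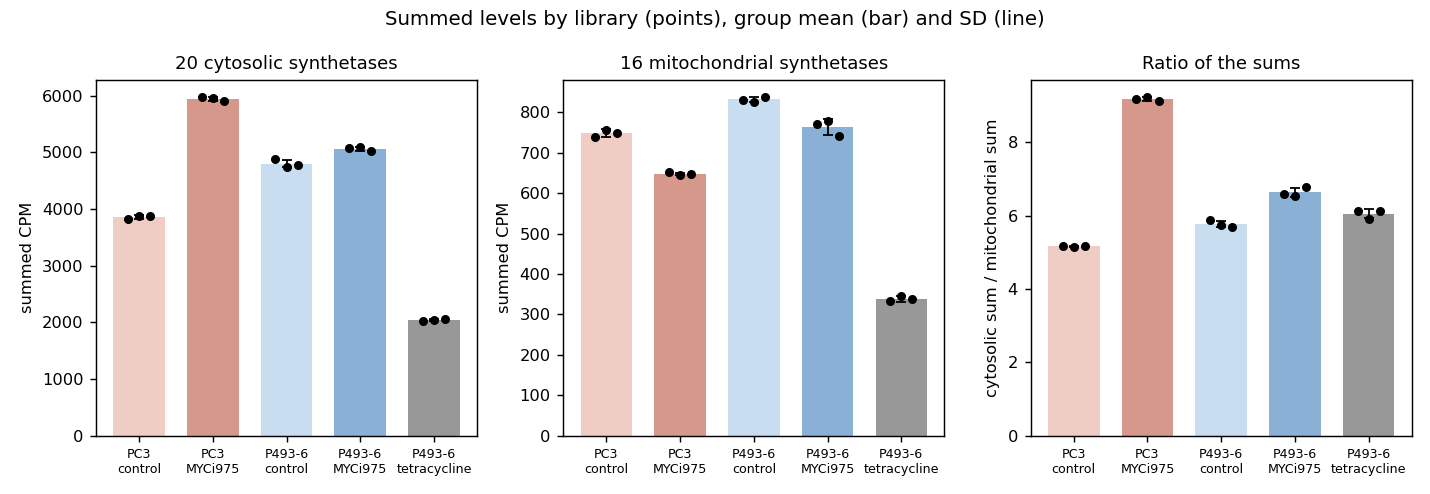
Summed CPM of the 20 cytosolic and the 16 mitochondrial synthetases and the ratio of both sums, by group. Points are the 3 libraries, bars the mean and lines the SD; the ratio rises from about 5.16 to 9.17 with MYCi975 in PC3, and both sums fall together with tetracycline.

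With MYCi975 in PC3, cytosolic synthetases moved in both directions and mitochondrial synthetases only down. Among the 20 cytosolic genes 12 rose and 6 fell, where 29% of all 13751 genes rose and 30.1% fell. Among the 16 mitochondrial genes 8 fell by limma and edgeR and 7 by DESeq2. None rose by any of the 3 tools, and 0 were higher at an unadjusted p below 0.05. The median log2 fold change was 0.56 for the cytosolic and -0.16 for the mitochondrial genes, against -0.00 for all genes. The cytosolic sum went from 3858 ± 33.4 CPM to 5942 ± 37.8 CPM (SD, n = 3), the mitochondrial sum from 748 ± 9.58 to 648 ± 2.89 CPM, and the ratio of the sums from 5.16 ± 0.024 to 9.17 ± 0.061.

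The largest rise was in AARS, the alanyl-tRNA synthetase (ENSG00000090861, chr16:70252295-70289543 on the minus strand of hg38). It stood at 204, 204 and 204 CPM in controls, against 527, 524 and 520 CPM with MYCi975. All treated libraries lay far above the controls, with a log2 fold change of 1.35 (SE 0.032, adjusted p = 2.12e-59). GARS, the glycyl enzyme of both compartments (ENSG00000106105, chr7:30594681-30634033, plus strand), was at 252, 251 and 253 CPM and at 593, 611 and 616 CPM with the inhibitor, a log2 fold change of 1.26 (SE 0.031, adjusted p = 4.46e-58). SARS, the seryl enzyme, was at 171, 173 and 180 CPM and at 375, 361 and 368 CPM, a log2 fold change of 1.07 (SE 0.034, adjusted p = 1.27e-48). In each of these 3 genes every treated library was more than 2 times the controls, and over all genes 30.2% had every treated library above every control.

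The 12 cytosolic rises were the 12 genes of the ATF4 target list, with log2 fold changes from 0.44 to 1.35 and a median of 0.91. YARS rose by 1.03, WARS by 1.02, EPRS by 0.91 and CARS by 0.90, the tyrosyl, tryptophanyl, glutamyl-prolyl and cysteinyl enzymes. MARS rose by 0.72, IARS and TARS by 0.64 each, LARS by 0.48 and NARS by 0.44. Of the 8 cytosolic synthetases not on that list 0 rose by limma and DESeq2, 1 by edgeR, and 6 fell. VARS was at 299, 287 and 288 CPM in controls, against 300, 297 and 320 CPM with MYCi975 (0.07, SE 0.033, adjusted p = 0.0752). It is the gene that edgeR called as higher. QARS was at 207, 206 and 201 CPM and at 203, 207 and 204 CPM (-0.00, SE 0.035), so both groups overlapped. The list was drawn up with earlier results of these data known, so its count is a description.

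The gene MARS overlaps the stress gene DDIT3, which lies on the opposite strand, by 982 bases. Of the 39 members 15 overlap such a gene and 4 a gene on the same strand. The libraries keep strand, but the strand setting of the counting is not given in the sources used here. DDIT3 went from 11.5, 12.5 and 10.2 CPM to 100.2, 93.8 and 87.4 CPM in PC3, a log2 fold change of 2.93. The part of shared reads in the rise of MARS was not tested.

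The largest cytosolic fall was in HARS, the histidyl enzyme (ENSG00000170445, chr5:140673173-140692024, minus strand), from 70.6, 72.9 and 74.2 CPM to 54.6, 52.3 and 53.9 CPM, without overlap. Its log2 fold change was -0.43 (SE 0.051, adjusted p = 3.47e-12). KARS, the lysyl enzyme, went from 144, 139 and 131 CPM to 111, 100.2 and 103 CPM (-0.39, SE 0.042, adjusted p = 1.3e-13). FARSA, a subunit of the phenylalanyl enzyme, went from 143, 146 and 147 CPM to 114, 116 and 111 CPM (-0.35, SE 0.040, adjusted p = 5.43e-13). Its partner subunit FARSB fell by 0.28, and RARS and DARS fell by 0.18 each.

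The mitochondrial falls were smaller than the cytosolic rises. MARS2, the methionyl enzyme (ENSG00000247626, chr2:197705369-197708387, plus strand), was at 18.8, 23.0 and 19.0 CPM and at 12.6, 14.9 and 17.5 CPM (-0.42, SE 0.093, adjusted p = 7.72e-05). Every treated library lay below every control. LARS2 went from 74.8, 77.7 and 77.4 CPM to 59.1, 59.3 and 58.7 CPM (-0.37, SE 0.049, adjusted p = 2.34e-10). YARS2, the mitochondrial gene with an ATF4 motif in its window, went from 31.3, 31.5 and 31.9 CPM to 26.7, 23.5 and 22.8 CPM (-0.37, SE 0.071, adjusted p = 5.6e-06). The other 5 that fell were NARS2, TARS2, VARS2, AARS2 and IARS2, with log2 fold changes of -0.25 to -0.20. The call of AARS2 was lost with DESeq2 (adjusted p = 0.0745) and without control library 1 (adjusted p = 0.101), control library 2 (0.0601) or MYCi975 library 1 (0.267). The remaining 8 mitochondrial genes were not called.

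By the roles within the cytosol, 4 of the 8 complex members rose and 3 fell in PC3, beside 8 and 3 of the 12 enzymes outside the complex. Of class I synthetases, one of the families of catalytic fold, 6 of 9 rose and 1 fell, and of class II 5 of 10 rose and 5 fell. GARS rose and KARS fell, although both serve cytosol and mitochondrion. The scaffold proteins moved apart. AIMP2 was at 53.6, 50.0 and 57.8 CPM in controls, against 58.7, 57.7 and 63.2 CPM with MYCi975 (0.15, SE 0.055, adjusted p = 0.0123), with overlapping groups. That call was lost without control library 2 (adjusted p = 0.150) or MYCi975 library 3 (0.0997). EEF1E1 fell, from 29.8, 27.3 and 28.2 CPM to 24.3, 24.7 and 23.0 CPM (-0.24, SE 0.072, adjusted p = 0.00331). AIMP1, at 72.5, 79.7 and 74.9 CPM and 79.1, 80.0 and 74.9 CPM, was not called.

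**Figure D2:**
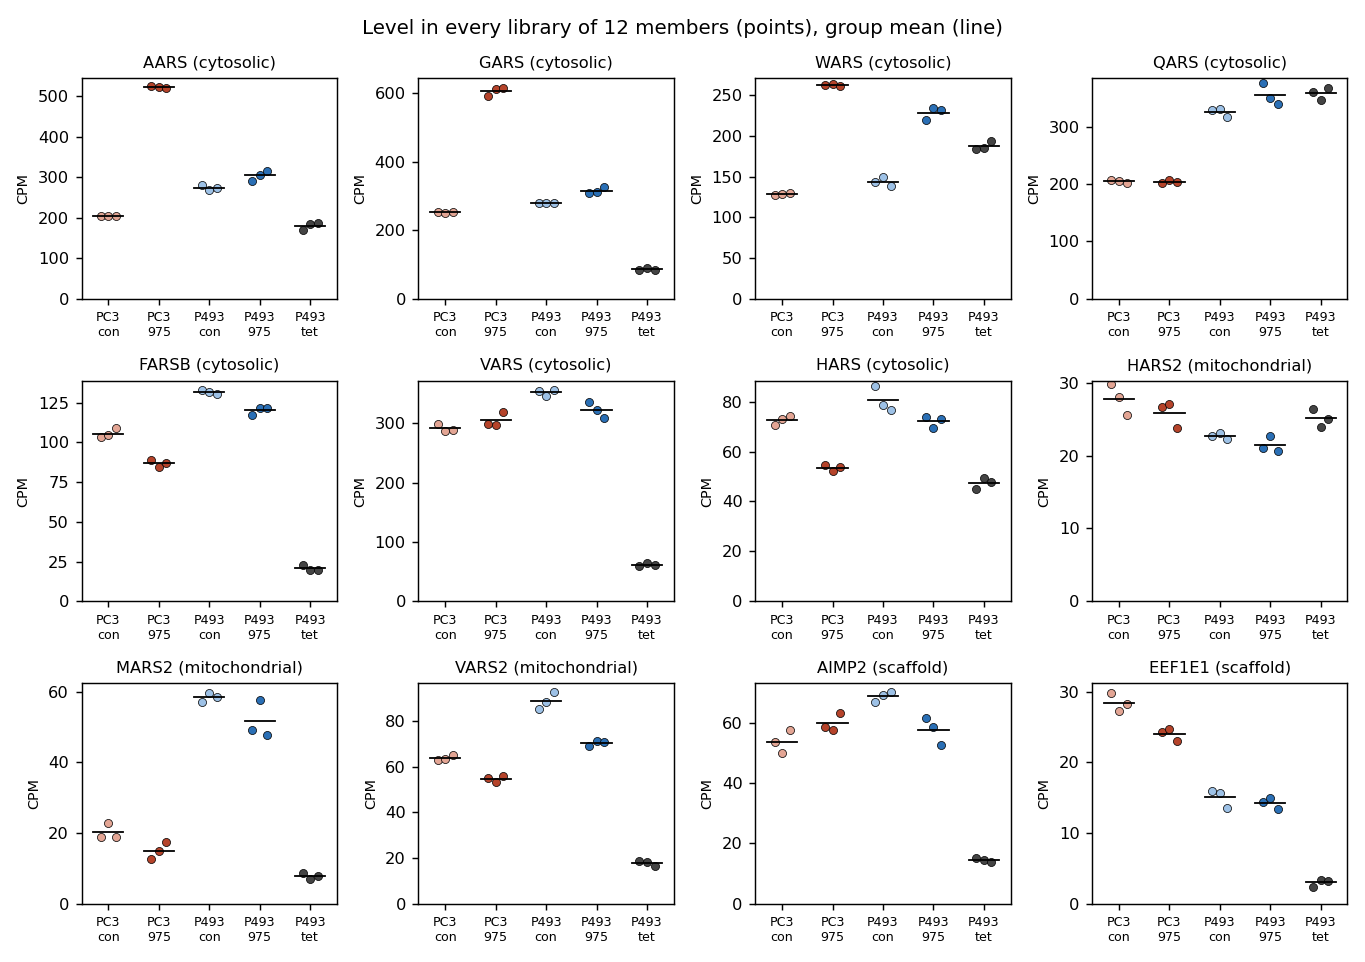
CPM of 12 members in all 15 libraries, from 0 on a linear axis. Points are libraries and lines group means; AARS and GARS stand highest in PC3 with MYCi975, while FARSB, VARS and MARS2 stand lowest with tetracycline.

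In PC3, of 13 measured genes for other charging and editing steps 5 fell and 0 rose by limma. Over all genes 29% rose and 30.1% fell, and counts near these shares are not particular to a list. GATC, a subunit of the mitochondrial glutamyl-tRNA amidotransferase, changed by -0.37 and TARSL2, a threonyl-tRNA synthetase-like gene, by -0.36. Of 12 genes of tRNA processing and export 3 rose and 6 fell. XPOT, the exporter of tRNA from the nucleus, rose by 0.85, from 313, 314 and 303 CPM to 558, 562 and 555 CPM, and ELAC2, which trims tRNA ends, fell by 0.64. Of 7 cytosolic elongation genes 4 rose and 2 fell, with EIF5A at -0.43 and EEF1A1 at 0.35. Among the 7 is EEF2K, not a factor itself but the kinase that inhibits EEF2. Of 9 mitochondrial translation factors 1 rose and 4 fell, with the recycling factor MRRF at -0.50 and the release factor MTRF1L at -0.36. All 10 integrated stress response genes rose, with a median of 2.29. They include TRIB3, a pseudokinase, by 3.73, and CHAC1, which degrades glutathione, by 3.03. ATF4, named for its role and outside the rule of largest changes, rose by 1.85, from 102, 97.9 and 98.9 CPM to 377, 359 and 354 CPM.

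In P493-6 with MYCi975 the 39 members spanned log2 fold changes from -0.33 to 0.67, beside -0.43 to 1.35 in PC3. Among the cytosolic genes 7 rose and 4 fell, where 10.6% of all 12998 genes rose and 18% fell, and among the mitochondrial genes 5 fell and 0 rose by limma. By edgeR 1 mitochondrial gene rose and by DESeq2 0, and 1 was higher at an unadjusted p below 0.05. The median log2 fold change was 0.05 for the cytosolic and -0.09 for the mitochondrial genes, against -0.04 for all genes. The cytosolic sum was 4800 ± 67.7 CPM in controls, against 5059 ± 35.2 CPM with the inhibitor (SD, n = 3). The mitochondrial sum was 832 ± 6.48 and 763 ± 19.5 CPM, and the ratio 5.77 ± 0.087 and 6.63 ± 0.12. The scaling of libraries mattered in this comparison. Over all genes 37% of limma calls were rises on the deposited CPM and 51.8% with TMM factors, a scaling between libraries. With TMM factors 10 cytosolic genes rose and 0 fell, and 1 mitochondrial gene rose and 3 fell. The authors' deposited table marks 9 cytosolic genes as higher and 0 as lower, and 0 mitochondrial genes as higher and 3 as lower. Those marks follow a stricter threshold than the 0.05 used here. PARS2, at an adjusted p of 0.0235 in the authors' edgeR fit, is not marked. The counts therefore differ in threshold as well as in scaling.

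WARS, the tryptophanyl enzyme, rose most, from 144, 150 and 138 CPM to 220, 235 and 232 CPM. All treated libraries lay above the controls, with a log2 fold change of 0.67 (SE 0.045, adjusted p = 9.41e-16). SARS went from 138, 134 and 138 CPM to 170, 173 and 177 CPM (0.34, SE 0.045, adjusted p = 9.11e-08). CARS went from 63.4, 61.4 and 59.6 CPM to 73.2, 79.8 and 76.8 CPM (0.31, SE 0.057, adjusted p = 3.25e-05). GARS, IARS and AARS rose by 0.17, 0.16 and 0.15, and QARS, the enzyme that was level in PC3, by 0.12. The call of QARS was lost without MYCi975 library 1 (adjusted p = 0.200) and without control library 3 (0.104). Of the ATF4 target list 6 of 12 rose by limma, 8 by edgeR and 7 by DESeq2, and 7 were higher at an unadjusted p below 0.05. None of the 12 fell by these tools, and 0 were lower at an unadjusted p below 0.05. EPRS, LARS, MARS, NARS, TARS and YARS were not called by limma, with log2 fold changes between -0.06 and 0.10.

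The 4 cytosolic falls in P493-6 with MYCi975 were small and did not hold under other settings. HARS went from 86.3, 78.5 and 76.7 CPM to 73.7, 69.6 and 73.2 CPM (-0.15, SE 0.057, adjusted p = 0.0346), FARSB from 133, 132 and 130 CPM to 117, 122 and 122 CPM (-0.13, SE 0.047, adjusted p = 0.0302), and VARS from 355, 347 and 357 CPM to 337, 323 and 309 CPM (-0.13, SE 0.041, adjusted p = 0.0146). KARS was the fourth (-0.12). None of the 4 was called with TMM factors, edgeR or DESeq2, and leaving out any of the 6 libraries left 1 or 2 of them.

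VARS2, the valyl enzyme of the mitochondrion, fell most, from 85.4, 88.4 and 92.7 CPM to 69.2, 71.4 and 70.8 CPM (-0.33, SE 0.054, adjusted p = 5.41e-06). Its span shares 5865 bases with GTF2H4 on the same strand. YARS2 went from 48.4, 46.7 and 45.6 CPM to 40.9, 39.2 and 34.1 CPM (-0.30, SE 0.071, adjusted p = 0.00107), and LARS2 from 79.1, 77.3 and 78.7 CPM to 66.8, 65.8 and 71.1 CPM (-0.20, SE 0.056, adjusted p = 0.00409). In each of the 3 genes every treated library was below every control, as in 24.8% of all genes. MARS2 (-0.18) and TARS2 (-0.16) were called by limma on the deposited CPM but not with TMM factors (adjusted p = 0.115 and 0.166). The authors' table marks neither. Without control library 2, control library 3 or MYCi975 library 1 the count of mitochondrial falls was 3. The remaining 11 genes were not called, although PARS2, the prolyl enzyme, was higher in every treated library (9.67, 11.1 and 12.1 CPM) than in every control (8.53, 9.33 and 8.29 CPM).

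Of the scaffold proteins AIMP2 fell, from 66.9, 69.3 and 70.3 CPM to 61.7, 58.5 and 52.5 CPM (-0.26, SE 0.061, adjusted p = 0.00108). AIMP1 and EEF1E1 were not called. Around them, 3 of 13 other charging genes fell in P493-6 with MYCi975, among them GATC by 0.31. Over all genes 10.6% rose and 18% fell, and counts near these shares are not particular to a list. Of 12 processing and export genes 1 rose and 4 fell, among them SSB, which binds new tRNA transcripts, at -0.42 and CLP1 at -0.28. Of the 7 elongation genes 5 rose and 1 fell, led by EEF2 (0.46) and EEF1A2 (0.42). Of 9 mitochondrial translation factors 4 fell, led by MRRF (-0.35) and GFM1 (-0.33). Of 10 integrated stress response genes 9 rose, with a median of 0.65 and CHAC1 at 1.77 and ATF3 at 1.29. ATF4 rose by 0.31, from 296, 290 and 273 CPM to 353, 350 and 364 CPM.

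Of the 12 cytosolic genes that rose in PC3, 6 rose in P493-6 (AARS, CARS, GARS, IARS, SARS and WARS), which is 50% of the PC3 rises and 85.7% of the 7 in P493-6. The 5 mitochondrial falls of P493-6 by limma were all among the 8 of PC3. In P493-6 only 3 fell with TMM factors or edgeR, and 2 with DESeq2. These comparisons share no library. Across the 20 cytosolic genes their log2 fold changes had a Pearson's r of 0.66 and a Spearman's rho of 0.76, and across the 16 mitochondrial genes 0.64 and 0.69, where genes are not independent replicates. Shared calls and correlations over all genes were not computed, so these values are not shown to be particular to the family.

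**Figure D3:**
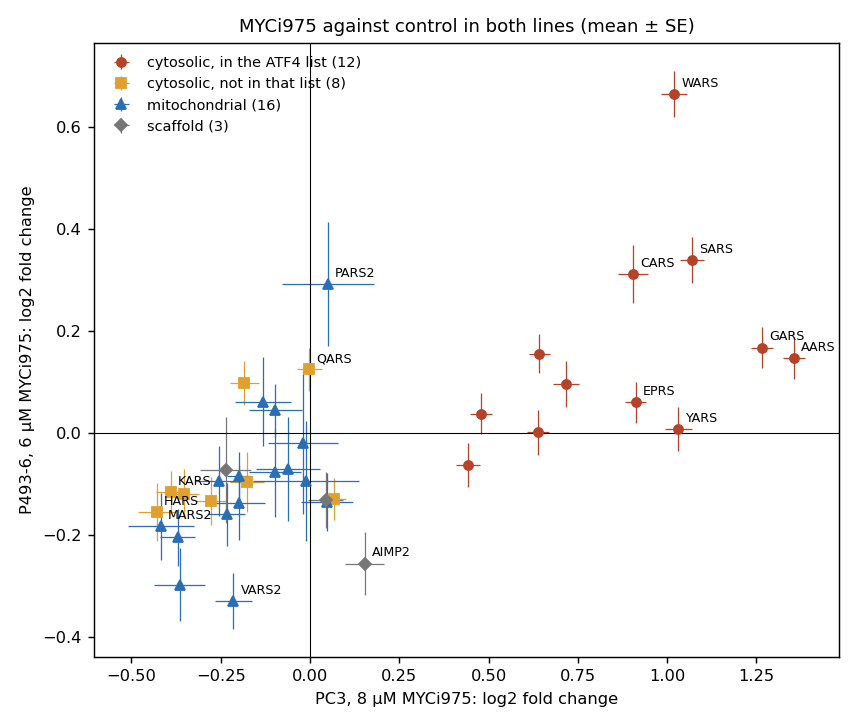
Log2 fold change with MYCi975 in PC3 (x axis) and in P493-6 (y axis), on the log2(CPM + 1) scale, for each of the 39 members, with SE bars. The 12 genes of the ATF4 list lie to the right of 0 on the x axis, at 0.44 to 1.35, while on the y axis only WARS is above 0.4.

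The difference of the effects between the lines was tested with an interaction term over 12 libraries and 11240 genes, of which 18.1% were more positive in PC3 and 18.2% more negative. Among the cytosolic genes 13 were more positive in PC3, the 12 genes of the ATF4 list and VARS, and 4 were more negative (DARS, FARSA, HARS and KARS). With TMM factors and with edgeR 6 cytosolic genes were more negative, and with DESeq2 5. AARS differed by 1.21 (SE 0.050, adjusted p = 1.79e-21), GARS by 1.10 (SE 0.048, adjusted p = 9.61e-21) and YARS by 1.02 (SE 0.055, adjusted p = 4.49e-18). WARS, the largest rise in P493-6, differed least among the ATF4 list, by 0.35 (SE 0.056, adjusted p = 2.64e-06). The largest negative differences were -0.28 in DARS (SE 0.059, adjusted p = 0.000196) and in HARS (SE 0.075, adjusted p = 0.00367) and -0.27 in KARS (SE 0.062, adjusted p = 0.000521). No mitochondrial gene was called by limma or DESeq2, 2 were with edgeR (both more negative in PC3), and 2 (IARS2 and LARS2) were more negative at an unadjusted p below 0.05. Of the scaffold proteins AIMP2 was more positive in PC3, by 0.41. The lines differ also in dose, so line and dose cannot be told apart.

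With tetracycline nearly the whole family was lower than in controls. Among the cytosolic genes 18 fell and 2 rose, where 41.9% of all 13703 genes fell and 36.2% rose. Among the mitochondrial genes 14 fell and 0 rose by limma and DESeq2, and 0 were higher at an unadjusted p below 0.05, while HARS2 was called as higher by edgeR. The median log2 fold change was -1.16 for the cytosolic and -0.95 for the mitochondrial genes, against -0.05 for all genes. The cytosolic sum was 2045 ± 17.3 CPM and the mitochondrial sum 338 ± 6.48 CPM (SD, n = 3), against 4800 and 832 CPM in controls. The ratio of the sums was 6.05 ± 0.12, beside 5.77 ± 0.087 in controls. In each of the 35 members that fell, every tetracycline library was below every control, as in 42.1% of all genes.

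FARSB (ENSG00000116120, chr2:222570536-222656337, minus strand) fell most in the cytosolic set, from 133, 132 and 130 CPM to 22.7, 19.8 and 19.8 CPM, a log2 fold change of -2.61 (SE 0.068, adjusted p = 1.45e-30). VARS, the valyl enzyme, went from 355, 347 and 357 CPM to 59.5, 64.1 and 61.7 CPM (-2.50, SE 0.047, adjusted p = 3.84e-35). LARS, the leucyl enzyme, went from 331, 323 and 325 CPM to 65.4, 70.7 and 69.5 CPM (-2.24, SE 0.047, adjusted p = 1.3e-33). IARS, the isoleucyl enzyme and the cytosolic gene with an E-box in its window, fell by 2.23, and EPRS by 2.07. FARSB and EPRS have windows without an E-box, and VARS and LARS have no window. The smallest falls were in CARS (-0.34), SARS (-0.50) and AARS (-0.61), 3 of the 6 genes that had risen with MYCi975 in both lines. Of the other such genes GARS (-1.69) and IARS (-2.23) fell further, and WARS rose. Across the 20 cytosolic genes the log2 fold changes with tetracycline and with MYCi975 in PC3 had a Pearson's r of 0.15, where genes are not independent replicates. Of the ATF4 target list 11 of 12 fell.

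The exceptions were WARS and QARS. WARS went from 144, 150 and 138 CPM to 184, 185 and 194 CPM, without overlap (0.39, SE 0.047, adjusted p = 1.3e-09). QARS went from 329, 330 and 317 CPM to 360, 347 and 368 CPM (0.14, SE 0.040, adjusted p = 0.00235). Interferon-gamma response genes, a group to which WARS is known to belong, rose in 6 of 6 measured with tetracycline, with a median of 1.64. Over all genes 36.2% rose. GBP1, an interferon-induced GTPase, was at 0.872, 3.11 and 1.53 CPM in controls, against 32.5, 31.7 and 28.1 CPM with tetracycline (3.56). With MYCi975 in P493-6, where WARS rose more, 3 of 6 rose, beside 10.6% of all genes. In PC3, where WARS rose by 1.02 with MYCi975, 1 of 5 measured rose and 1 fell, with a median of 0.01. The part of interferon in the rises of WARS was not tested.

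MARS2 fell most of all 39 members, from 57.2, 59.7 and 58.5 CPM to 8.72, 6.98 and 7.98 CPM, a log2 fold change of -2.75 (SE 0.095, adjusted p = 2.43e-26). VARS2 went from 85.4, 88.4 and 92.7 CPM to 18.7, 18.1 and 16.5 CPM (-2.26, SE 0.075, adjusted p = 4.98e-27). EARS2, the glutamyl enzyme, went from 83.4, 84.9 and 80.4 CPM to 18.9, 20.3 and 19.0 CPM (-2.04, SE 0.073, adjusted p = 6.81e-26). A link between the E-box and the size of a fall was not tested. MARS2 and EARS2 hold an E-box in their windows, and VARS2 has no window in the table. CARS2, which also holds one, fell by 0.90, from 109, 107 and 115 CPM to 59.9, 58.3 and 57.4 CPM. FARS2 was not called, at 6.01, 6.47 and 5.93 CPM and 6.77, 4.04 and 5.46 CPM (-0.17, SE 0.16, adjusted p = 0.325), a level at which the spread between libraries was wide.

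HARS and HARS2 are neighbours that start back to back, and they parted with tetracycline. HARS went from 86.3, 78.5 and 76.7 CPM to 44.9, 49.2 and 47.9 CPM (-0.75, SE 0.064, adjusted p = 1.3e-13). HARS2 (ENSG00000112855, chr5:140691426-140699291, plus strand) was at 22.7, 23.2 and 22.3 CPM in controls, against 26.4, 23.9 and 25.1 CPM with tetracycline (0.14, SE 0.089, adjusted p = 0.154). Each tetracycline library was above each control. The rise was called with TMM factors (adjusted p = 0.0256) and edgeR (0.0232). The spans of both genes share 599 bases in the authors' annotation. The RefSeq starts lie 84 bases apart, so that both genes are read outward from the stretch chr5:140691371-140691454, which is shown on the plus strand because it is the whole interval between them. It holds 9 CG pairs, a GC content of 59.5%, and neither the ATF4 motif nor the E-box was found in either window.
HARS2: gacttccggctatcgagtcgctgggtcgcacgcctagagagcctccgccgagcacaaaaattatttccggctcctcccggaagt
HARS2 reads forward from the right end of this stretch and HARS in reverse from the left end.

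All 3 scaffold proteins fell with tetracycline. AIMP2 went from 66.9, 69.3 and 70.3 CPM to 15.3, 14.5 and 13.8 CPM (-2.17, SE 0.080, adjusted p = 1.78e-25), and EEF1E1 from 15.99, 15.6 and 13.6 CPM to 2.41, 3.43 and 3.23 CPM (-2.00, SE 0.15, adjusted p = 1.25e-15). AIMP1 went from 115, 105 and 98.8 CPM to 45.1, 44.2 and 45.6 CPM (-1.22, SE 0.062, adjusted p = 1.09e-20). Of the 8 enzymes of the complex 7 fell, with QARS the exception, and of the 12 outside it 11 fell, with WARS the exception. The scaffold sum was 190 ± 7.70 CPM in controls, against 62.5 ± 0.36 CPM with tetracycline (SD, n = 3).

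**Figure D4:**
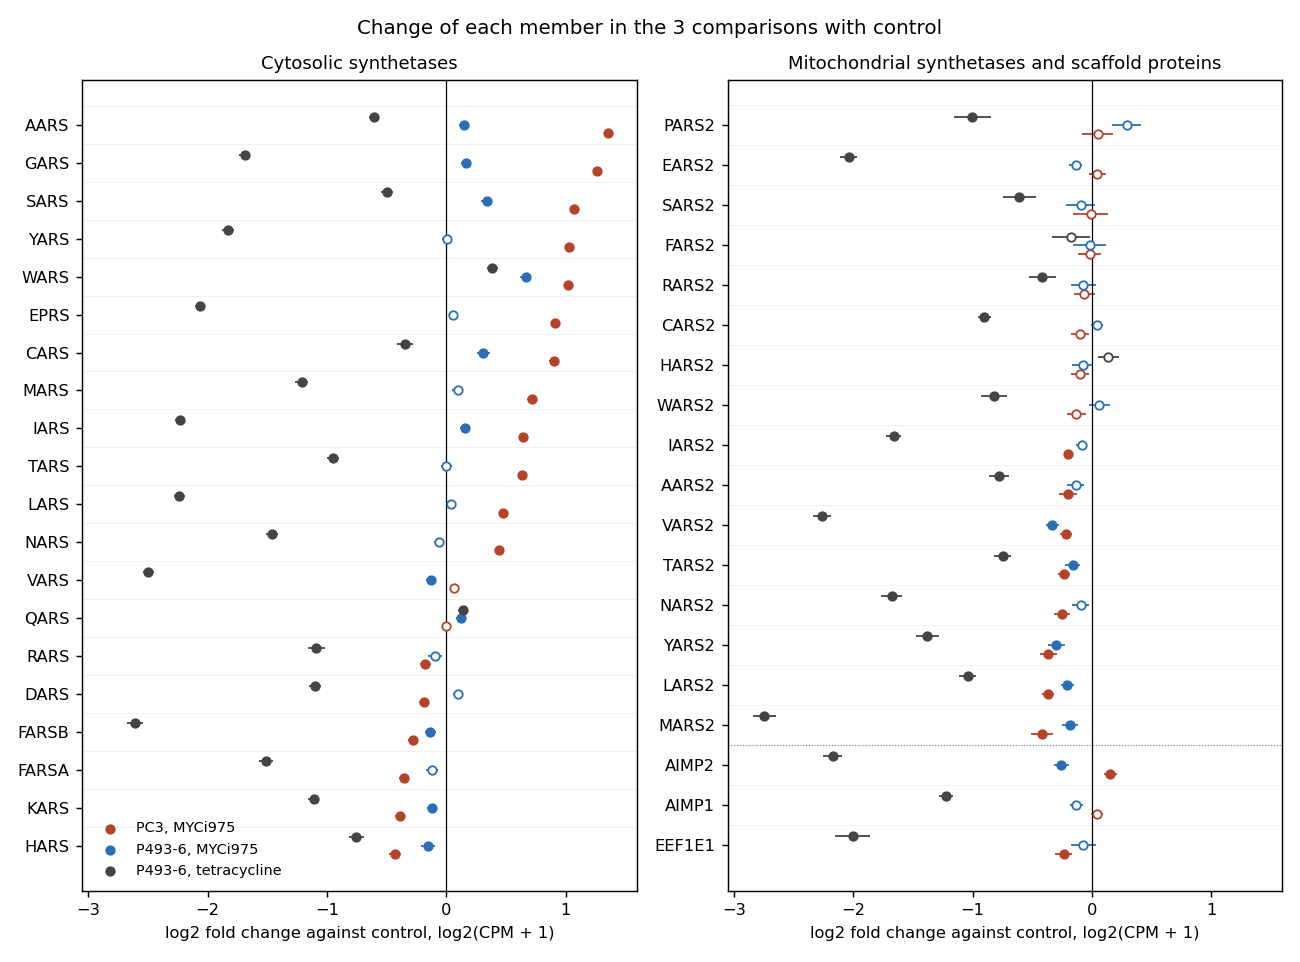
Log2 fold change against control, on the log2(CPM + 1) scale, of each member for MYCi975 in either line and for tetracycline. Filled points were called at an adjusted p below 0.05, open points were not, and lines are the SE; with tetracycline 35 of 39 members fell, with MYCi975 only the cytosolic panel holds points above 0.4.

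The steps around charging fell as well, where 41.9% of all genes fell and 36.2% rose. Of 13 other charging and editing genes 10 fell and 2 rose with tetracycline, among them AARSD1 (-1.70) and DTD2 (-1.69), which clear mischarged tRNA. Of 12 processing and export genes 9 fell. XPOT went from 299, 300 and 292 CPM to 43.2, 40.6 and 42.1 CPM, a log2 fold change of -2.79. Of 9 mitochondrial translation factors 8 fell and 1 rose, with the elongation factors TSFM at -1.98 and TUFM at -1.75. The 7 cytosolic elongation genes divided into 4 that rose and 3 that fell, led by EIF5A (-1.65) and the kinase EEF2K (-0.41). The 9 measured integrated stress response genes divided into 5 that rose, with PPP1R15A at 1.77, and 4 that fell, with ASNS at -1.61. ATF4 fell by 1.08, from 296, 290 and 273 CPM to 138, 136 and 131 CPM.

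Markers moved with the tetracycline group as well. The 8 B cell markers summed to between 3958 and 4191 CPM in controls, against between 11673 and 12083 CPM with tetracycline. The 5 myeloid markers went from sums of 8.84 to 10.6 CPM to sums of 136 to 142 CPM, with CD14 and CSF1R not listed, and the 5 T cell markers from 6.06 to 9.69 CPM to 27.1 to 29.3 CPM, with CD3D and TRAC not listed. With MYCi975 the B cell sum was 4494 to 4814 CPM. Their part in the falls of the synthetases was not tested.

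Within P493-6, the direct contrast of MYCi975 with tetracycline used 9 libraries and 12860 genes, of which 42.3% were higher with MYCi975 and 33.9% lower. Among the cytosolic genes 19 were higher with MYCi975 and 0 lower by limma, also at an unadjusted p below 0.05, and 1 (QARS) was lower by edgeR and DESeq2. Among the mitochondrial genes 14 were higher and 1 lower, and all 3 scaffold proteins were higher. FARSB was higher by 2.48 (SE 0.060, adjusted p = 4.1e-37), IARS by 2.39 (SE 0.040, adjusted p = 1.27e-43) and VARS by 2.37 (SE 0.045, adjusted p = 1.72e-41). Of the mitochondrial genes MARS2 was higher by 2.56 (SE 0.086, adjusted p = 5.4e-31), VARS2 by 1.93 (SE 0.067, adjusted p = 2.37e-30) and EARS2 by 1.90 (SE 0.067, adjusted p = 3.64e-30). HARS2 was the lower one, at -0.22 (SE 0.088, adjusted p = 0.0258). Its call was lost without MYCi975 library 1 (adjusted p = 0.0663), MYCi975 library 3 (0.0812) or tetracycline library 1 (0.0919). WARS was 0.28 higher with MYCi975 (SE 0.045, adjusted p = 3.1e-07). QARS, at -0.01 (adjusted p = 0.795), was lower with TMM factors (-0.12, adjusted p = 0.0112).

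Set side by side by amino acid, the enzymes of both compartments gave 17 pairs, counting EPRS with EARS2 and PARS2 and FARS2 with both cytosolic subunits. With MYCi975 in PC3 the cytosolic log2 fold change was the higher one in 13 pairs, and the difference within a pair ran from -0.33 to 1.55 with a median of 0.86. It was widest for alanine, 1.35 in AARS and -0.20 in AARS2, and for tyrosine, 1.03 in YARS and -0.37 in YARS2. In P493-6 with MYCi975 the cytosolic value was higher in 12 pairs, with a median difference of 0.20. With tetracycline it was higher in 6 pairs, and the median difference was -0.24. There the pairs spread most, from -2.44 for FARSB with FARS2 to 1.53 for methionine, where MARS was at -1.21 and MARS2 at -2.75. Pairs share genes and were not tested.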

How the data were processed

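Exons were captured from the RNA of 15 samples with a stranded kit (TruSeq RNA Access), per the labels' protocols. STAR with hg38, HTSeq and edgeR are named in the submitters' processing notes, and their versions were not given in the sources used here. Expression was deposited by the authors as CPM in 3 tables, from which whole reads could be recovered for 100% of values within a tolerance of 0.001 reads. Per the file headers, log2 fold changes, p-values and calls by the authors stand beside the CPM. Apart from the adjusted p of PARS2, only the marks were used, as the authors' own calls.

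The labels gave the groups. Each comparison was fitted with limma 3.58.1 in R 4.3.3 (trend and robust settings) on log2(CPM + 1), the test planned for normalized values. P-values were adjusted over all genes of the fit (Benjamini-Hochberg), with two-sided calls at an adjusted p below 0.05. Alternatives were pseudocounts of 0.1 and 0.5 CPM, a mean CPM of at least 5, TMM factors, edgeR 4.0.16 and DESeq2 1.42.0 on recovered reads, a replicate block, all 9 P493-6 libraries for the P493-6 comparisons, and each library left out. Tests on simulated counts changed 50 genes per size, with a single dispersion for all genes. In the data far more genes were called (3993 rose and 4144 fell in PC3), so the rates need not hold there. False calls were counted among the unchanged genes of each fit. The PC3 comparison recovered 46% of genes with a change of 0.25, 82% with 0.5, 94% with 1 and 98% with 2 on the log2 scale. It gave 5 false calls in a fit of 13751 genes. Recovery of changes of 0.25 and 0.5 was 38% and 70% for P493-6 with MYCi975 (9 false calls among 12998 genes), 30% and 62% for tetracycline (7 among 13703), 46% and 76% for the direct contrast (9 among 12860), and 32% and 82% for the difference between the lines (7 among 11240).

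The members and lists were chosen with earlier results of these data known. The text gives in full, per comparison, for each compartment the 3 genes called with the largest rise and the 3 with the largest fall, the scaffold proteins, and of each other list up to 2 called genes with the largest change, and MYC as a check of the labels. Some genes of the other lists that this rule would name are not reported here. ATF4 and DDIT3 were named outside this rule, for their role and position. Promoter windows came from RefSeq, matched by current or older symbol.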

Additional observations from a re-analysis of the deposited data

Results flagged for a closer look

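The effect of MYCi975 differed between PC3 and P493-6 in 18 members, by the interaction term of limma at an adjusted p below 0.05. On the log2 scale it was more positive in PC3 in AARS (1.21), GARS (1.10), YARS (1.02), EPRS (0.85), SARS (0.73), TARS (0.64), MARS (0.62), CARS (0.59), NARS (0.51), IARS (0.49), LARS (0.44), AIMP2 (0.41), WARS (0.35) and VARS (0.20). It was more negative in PC3 in DARS (-0.28), HARS (-0.28), KARS (-0.27) and FARSA (-0.23). AIMP2 was called in opposite directions, higher with MYCi975 in PC3 and lower in P493-6. Its groups overlapped in PC3, and that call was lost without control library 2 (adjusted p = 0.150) or MYCi975 library 3 (0.0997). VARS was not called in PC3 and was lower in P493-6 by limma, though not with TMM factors, edgeR or DESeq2. The doses were 8 and 6 µM, so line and dose cannot be told apart.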

How the results depend on the processing

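Counts and medians of the cytosolic and mitochondrial sets were recomputed under every alternative. Single members were followed only if called by limma on the deposited CPM, or if uncalled with a log2 fold change given in the text. Of their values 2119 kept direction and side of the threshold, while 63 lost the call, 14 gained it and 12 changed sign. Calls gained by members that were not followed are not counted there, so gains and losses are not comparable. Of the lost calls 53 were in P493-6 with MYCi975. With MYCi975 in P493-6, the cytosolic falls numbered 0 with TMM factors, edgeR, DESeq2 and the replicate block, 2 with all 9 libraries, and 1 to 2 with a library left out. The mitochondrial falls numbered 3 with TMM factors, edgeR and all 9 libraries, 2 with DESeq2 and 3 to 5 with a library left out, and mitochondrial rises 1 with TMM factors and edgeR and 0 to 1 with a library left out. The cytosolic median was 0.0945 with TMM factors, 0.0951 with edgeR and 0.0937 with DESeq2 (0.0328 to 0.0729 with a library left out), and the mitochondrial was -0.0507, -0.0550 and -0.0572 (-0.128 to -0.0695). In PC3 the cytosolic median ranged from 0.54 to 0.57 with a library left out, and the mitochondrial was -0.20 with a mean CPM of at least 5.

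With tetracycline the cytosolic median was -1.08 with TMM factors and -1.09 with edgeR and DESeq2 (-1.20 to -1.14 with a library left out). The mitochondrial median was -0.99 and -0.98 with pseudocounts of 0.1 and 0.5 CPM, -0.88 with TMM factors, -0.90 with edgeR and -0.91 with DESeq2 (-0.99 to -0.91), and 1 mitochondrial gene rose with TMM factors and edgeR. In the direct contrast 1 cytosolic gene was lower with TMM factors, edgeR and DESeq2, the cytosolic medians were 1.15, 1.16 and 1.16 (1.23 to 1.27 with a library left out) and the mitochondrial 0.81, 0.83 and 0.84 (0.88 to 0.96), with 0 to 1 mitochondrial genes lower. For the difference between the lines the cytosolic medians were 0.43, 0.43 and 0.45 (0.45 to 0.47) and the mitochondrial -0.10 with TMM factors and -0.11 with edgeR (-0.0931 to -0.0654). There 2 mitochondrial genes were more negative with TMM factors and edgeR, and 0 to 1 in either direction with a library left out.

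Signs changed in 3 genes with values near 0. QARS in PC3 was 0.0048 with TMM factors, 0.0044 with edgeR, 0.0025 with DESeq2 and -0.0146 to 0.0050 with a library left out. TARS (-0.0282 to 0.0287) and YARS (-0.0264 to 0.0406) in P493-6 with MYCi975, and QARS in the direct contrast (-0.0529 to 0.0199), changed sign with a library left out. The cause was not tested.

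Replicate numbers are shared between groups, but same-numbered libraries correlated in their deviations by -0.0727 to 0.0447, so they share only a number. With a replicate block the cytosolic falls in P493-6 with MYCi975 went from 4 to 0, the rises from 7 to 6, and the mitochondrial falls from 5 to 4. At 1 CPM a library of 8162582 reads holds about 8 reads, so the lowest levels, in SARS2, PARS2, FARS2 and EEF1E1, are the least precise.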
